A study of Mus musculus with 15 samples.

Results

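Toll-like receptors are pattern recognition receptors of innate immune cells, and Cd14 is a co-receptor that hands bacterial lipopolysaccharide to Tlr4. Tlr1, Tlr2, Tlr4, Tlr5 and Tlr6 sit at the cell surface and bind lipopeptides, lipopolysaccharide and flagellin, whereas Tlr7, Tlr8, Tlr9 and Tlr13 sit in endosomes and bind nucleic acids. In blood they are carried mainly by neutrophils, monocytes, dendritic cells and B cells, and most of them signal through the adaptor Myd88 to NF-κB. The 10 genes described here, 6 of the cell surface class with Cd14 and 4 of the endosomal class, were taken by name from the 55416 gene identifiers of the count tables, and all 10 were found. All 10 also passed the filter on low counts in each of the 3 comparisons.

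Whole blood was collected by cheek bleed from C57BL/6 mice, with 1 RNA-seq library per mouse. Of the 15 libraries, 5 came from mice given αCTLA-4 followed by an early neck dissection (ND), 5 from mice given αCTLA-4 followed by a late ND, and 5 from untreated mice without surgery. The study's model is an orthotopic tongue tumor grown from cells of the murine oral squamous carcinoma line 4MOSC1. The labels repeat the tumor and treatment protocol for every sample, so whether the untreated mice carried tumors cannot be read from them. The labels give a growth time of 10 days for all 15 samples. The study's text places the blood draw after the late operation and its figure legend before it, so "late ND" and "after late ND" name the group only.

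The libraries held 5527108 to 7182346 gene counts in the early ND group, 7849602 to 13924361 in the late ND group and 5862888 to 10796099 in the untreated group. The 10 genes together took 729 to 2553 counts per early ND library, 5343 to 9962 per late ND library and 746 to 5280 per untreated library, so the late ND values rested on the most counts. Markers of neutrophils, monocytes, B cells, T cells and dendritic cells were detected in every group, with the exception of Klk1, a plasmacytoid dendritic cell marker listed at 0 in the untreated libraries. Hemoglobin genes took 14.9% to 29.3% of gene counts in the late ND group, 38.3% to 64.1% in the early ND group and 31.6% to 61.7% in the untreated group. The 18S gene Rn18s-rs5 lay under 5000 CPM in untreated 2, late 2 and late 3, called 18S-poor here. In bulk blood RNA, fewer cells of a type and less RNA per cell cannot be told apart.

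Levels below are CPM, counts scaled by library size after TMM scaling of the 15 libraries, and genes are set against each other only per kilobase (kb) of exon. The length is that of the merged exons of all annotated transcripts of a gene. It was 5499 bases for Tlr2 and 6723 for Tlr5, whose canonical transcripts hold 3017 and 2909, but 4738 against 4518 for Tlr13. The order of genes and the class shares below depend on this choice of length. Tlr13, an endosomal receptor for bacterial ribosomal RNA, had the highest mean level per kb in each group, at 25.0 ± 6.16 CPM per kb in the untreated group, 18.2 ± 7.23 in the early ND group and 34.1 ± 12.3 in the late ND group (SD, n = 5 each). Tlr1, the partner of Tlr2 for triacylated lipopeptides, came next with 16.6 ± 3.41, 15.5 ± 1.57 and 16.3 ± 3.21 CPM per kb (SD, n = 5 each) in the same order of groups. In the early ND group Tlr13 and Tlr1 differed by less than the spread, with Tlr13 above Tlr1 in 3 of 5 libraries, and in the other groups Tlr13 was above Tlr1 in 5 of 5.

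Cd14 followed Tlr1 in each group, at 12.4 ± 4.88 CPM per kb in the untreated group, 5.71 ± 4.09 in the early ND group and 16.2 ± 6.39 in the late ND group (SD, n = 5 each). Tlr1 and Cd14 differed by less than the larger SD in the untreated and late ND groups. In late ND mice Tlr2, Tlr6, Tlr8, Tlr4 and Tlr7 followed at 8.58, 6.55, 6.48, 5.91 and 5.86 CPM per kb, and each differed from the next by less than the larger SD of the pair. The same held for Tlr2, Tlr6, Tlr7, Tlr8 and Tlr4 in untreated mice. In early ND mice Cd14 and Tlr7 differed by less than the larger SD, as did each neighbouring pair among Tlr6, Tlr8, Tlr2, Tlr9 and Tlr4. Tlr5, the flagellin receptor, was last in each group at 0.875 ± 0.378, 0.607 ± 0.135 and 1.32 ± 0.418 CPM per kb (SD, n = 5 each; untreated, early ND, late ND), below the gene next to it in 5 of 5 libraries of every group.

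**Figure D1:**
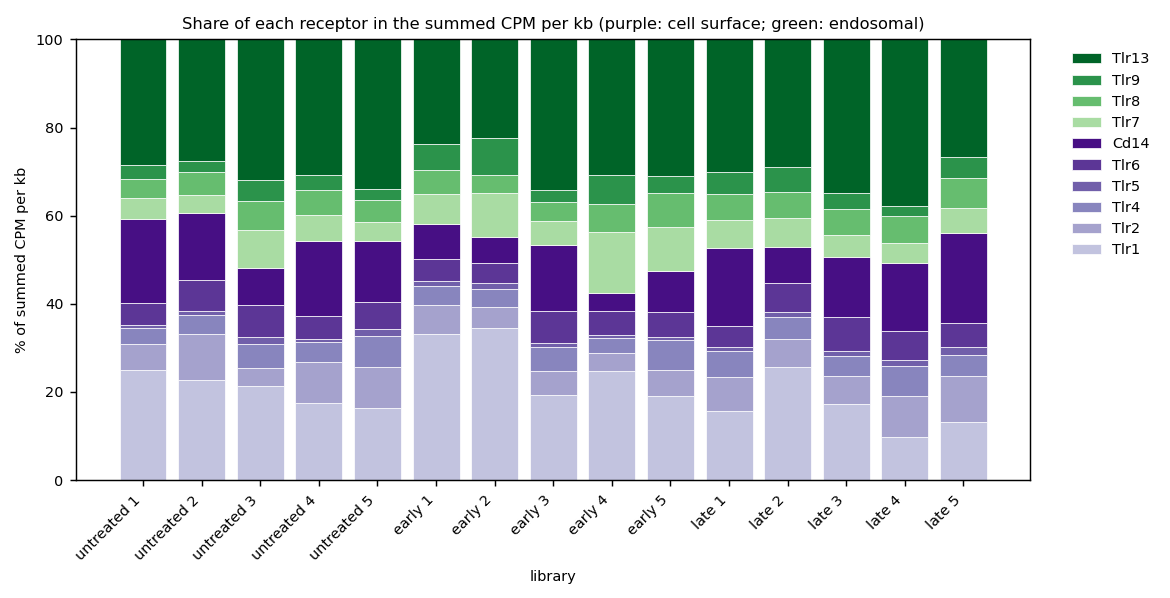
Share of each of the 10 genes in their summed CPM per kb, as stacked bars for the 15 libraries (y axis, percent; x axis, library). Cell surface genes are in purple and endosomal genes in green. The cell surface class held between 42.5% and 60.5% of the sum in each library.

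The shares of the classes overlapped between groups. The cell surface genes made up 55.3% ± 4.92 of the summed CPM per kb in the untreated group, 51.3% ± 6.32 in the early ND group and 52.3% ± 2.57 in the late ND group (SD, n = 5 each). Within the classes the ranges were wider. Tlr2 and Cd14 held 19.5% to 38.5% of the cell surface sum after early ND, 27.3% to 55.0% after late ND and 25.7% to 48.6% in untreated mice. Tlr13 held 50.1% to 72.9% of the endosomal sum after early ND, 60.5% to 74.5% after late ND and 61.5% to 74.1% in untreated mice. Early 4 had the lowest cell surface share of the 15 libraries, 42.5%, and untreated 2 the highest, 60.5%. These shares are given as a description without a test.

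Tlr1 and Tlr6 need a word on sequence, because their levels can be confused by counting. Both bind lipopeptides as partners of Tlr2 and are neighbours on chromosome 5, Tlr1 at chr5:65082022-65090941 and Tlr6 at chr5:65108704-65203497 (GRCm39, minus strand). Among the canonical transcripts of 12 mouse Toll-like receptor genes, Tlr1 and Tlr6 were the only pair with an identical stretch of at least 50 bases. The longest such stretch ran for 229 bases within the coding sequence of both genes, at chr5:65082880-65083108 in Tlr1 and chr5:65111171-65111399 in Tlr6, and is shown because reads inside it fit both genes equally well. Of the windows of 50 bases in each transcript, 15.1% in Tlr1 and 10.6% in Tlr6 were shared. The windows that are not shared tell the genes apart. Both levels are uncertain by the reads from the shared windows, of which the printed stretch holds only a part.
Tlr1 and Tlr6: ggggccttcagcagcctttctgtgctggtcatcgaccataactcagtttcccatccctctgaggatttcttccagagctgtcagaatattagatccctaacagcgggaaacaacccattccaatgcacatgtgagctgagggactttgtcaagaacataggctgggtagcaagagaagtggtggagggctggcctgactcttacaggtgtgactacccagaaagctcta

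Late ND against early ND was the study's own comparison, which it describes as the timing of surgery after the same antibody. Of the 10 genes, 2 were higher in late ND mice in edgeR's quasi-likelihood test, with p adjusted by Benjamini and Hochberg's method across 13315 genes, and none was lower. These were Tlr2, the lipopeptide receptor that pairs with Tlr1 or Tlr6, and Tlr5. Over all genes tested, 2.5% were called higher and 2.48% lower. At an unadjusted p under 0.05, 8 of the 10 were higher, against 14.4% of all genes. All 10 log2 fold changes lay above zero, with a median of 0.86 against 0.014 over all genes tested. The groups did not overlap for 2 of the 10 genes, and 4.84% of all genes were higher in this way. Other scalings of the libraries gave a different split of the calls over all genes, from 333 higher and 330 lower with TMM to 201 and 338 with DESeq2's size factors and 8923 and 137 with library totals.

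**Figure D2:**
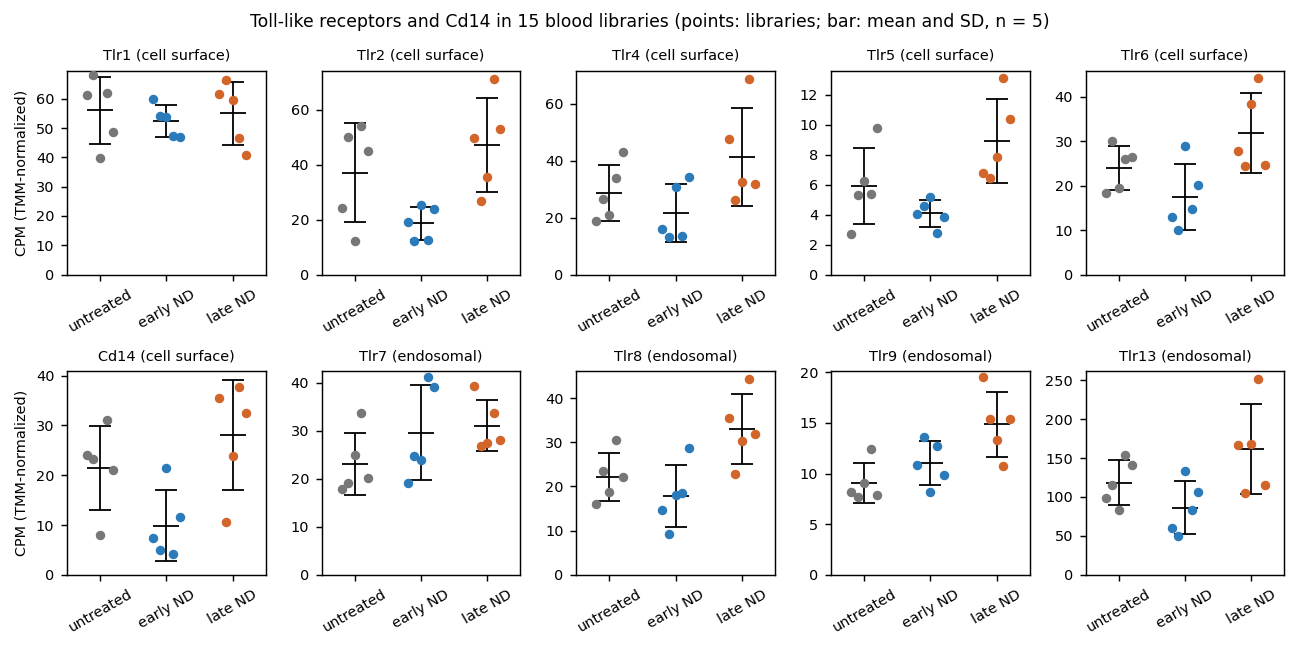
TMM-normalized CPM (y axis, linear, from 0) of the 10 genes in untreated, early ND and late ND libraries. Points are libraries and bars are the mean ± SD of 5. In the panels for Tlr2 and Tlr5 the late ND points all lie above the early ND points, whereas Tlr1 sits near 55 CPM in each group.

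Tlr2 stood at 19.0, 12.3, 25.1, 12.7 and 23.9 CPM in early ND libraries 1 to 5 and at 49.5, 26.8, 35.6, 71.3 and 52.8 CPM in late ND libraries 1 to 5. Late 2 was the lowest of its group and lay just above early 3, the highest of the other. The log2 fold change was 1.29 (SE 0.27, edgeR adjusted p = 0.0250), or 2.44-fold, and 5 of 5 late ND libraries lay above every early ND library. In untreated mice Tlr2 spread over 24.1, 50.1, 12.2, 53.9 and 44.8 CPM and so covered most of the range of both other groups. The study displayed Tlr2 and Cd14 among genes it picked from these same libraries, so their direction is no independent evidence.

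Tlr5 stood at 4.04, 4.58, 5.19, 2.75 and 3.85 CPM in the early ND libraries and at 6.78, 6.41, 7.85, 13.1 and 10.4 CPM in the late ND libraries. Each late ND library again lay above each early ND library. Its log2 fold change was 1.06 (SE 0.23, edgeR adjusted p = 0.0285), or 2.08-fold. These levels rest on 8 to 38 counts per early ND library and 74 to 179 per late ND library, the fewest of the 10 genes, and early 4 with 8 counts was the lowest.

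Both calls depended on single libraries. Tlr2 no longer passed when early 2, early 4, late 1, late 3, late 4 or late 5 was left out, and Tlr5 no longer passed without early 1, early 2, early 4, late 3, late 4 or late 5. With each of the 10 libraries left out in turn, the log2 fold change ranged from 1.07 to 1.43 for Tlr2 and from 0.85 to 1.16 for Tlr5, with adjusted p up to 0.0721 and 0.0747. Without late 2 and late 3, the late ND libraries poor in 18S sequence, the log2 fold changes were 1.58 and 1.23 and neither passed (edgeR adjusted p = 0.0509 for each). In that fit 4 of all 13440 genes were called higher and 0 lower. The unadjusted edgeR p there was 4.08e-05 for Tlr2 and 0.000489 for Tlr5, against 0.000455 and 0.000628 with all 10 libraries. With the hemoglobin genes and Rn18s-rs5 removed from the table they were 1.28 and 1.04, and both passed (edgeR adjusted p = 0.0262 and 0.0319).

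Cd14 had the largest log2 fold change of the 10 genes in this comparison, 1.42 (SE 0.43), but did not pass (edgeR adjusted p = 0.0703). Its early ND libraries stood at 7.44, 4.90, 21.4, 4.12 and 11.5 CPM and its late ND libraries at 35.4, 10.7, 23.8, 37.8 and 32.6 CPM. Late 2 at 10.7 CPM was the only late ND library within the early ND range, and early 3 was the highest early ND library. Without late 2 the log2 fold change was 1.62 (edgeR adjusted p = 0.0324), and without early 3 it was 1.94 (edgeR adjusted p = 0.0153), so that Cd14 passed in both cases. Tlr4, the lipopolysaccharide receptor that Cd14 serves, went from 13.2 to 34.2 CPM after early ND and from 26.2 to 68.8 CPM after late ND, and its groups overlapped. Its log2 fold change of 0.90 (SE 0.33) did not pass (edgeR adjusted p = 0.121). Tlr6, the partner of Tlr2 for diacylated lipopeptides, had a log2 fold change of 0.84 (SE 0.27, edgeR adjusted p = 0.0911), with 9.97 to 28.8 CPM after early ND and 24.3 to 44.1 CPM after late ND.

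Tlr1 stayed apart from the other cell surface genes. It stood at 59.8, 54.1, 53.8, 47.4 and 47.0 CPM after early ND and at 61.6, 66.4, 59.6, 46.5 and 40.7 CPM after late ND. Late 4 and late 5 lay below every early ND library, and late 1 and late 2 above. Its log2 fold change was 0.04 (SE 0.14, edgeR adjusted p = 0.908) and turned to -0.13 without the 18S-poor libraries.

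Among the endosomal genes edgeR called none, and 3 of 4 were higher at an unadjusted p under 0.05, against 14.4% of all genes. DESeq2's Wald test called Tlr8 (adjusted p = 0.0346), and 769 of all 13315 genes higher. The median log2 fold change was 0.63, against 0.98 for the 6 cell surface genes, of which 5 were higher at an unadjusted p under 0.05, beside the same 14.4% of all genes. The difference between the classes was not tested. Tlr8, a receptor for RNA fragments, stood at 14.8, 9.32, 18.2, 18.5 and 28.6 CPM after early ND and at 35.4, 22.9, 30.4, 44.4 and 31.9 CPM after late ND. Early 5 was the highest early ND library and the groups overlapped between it and late 2. The log2 fold change of Tlr8 was 0.86 (SE 0.26, edgeR adjusted p = 0.0703), and without early 5 it was 1.11 and passed (edgeR adjusted p = 0.0288). Without late 2 it was 0.96 and passed too (edgeR adjusted p = 0.0466).

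Tlr13 stood at 59.9, 49.4, 133, 82.8 and 107 CPM after early ND and at 166, 105, 168, 252 and 116 CPM after late ND, with early 3 and early 5 inside the late ND range. Its log2 fold change of 0.87 (SE 0.30) did not pass (edgeR adjusted p = 0.103). Without early 3 it was 1.08 and passed (edgeR adjusted p = 0.0336), as did Tlr6 at 1.12 (edgeR adjusted p = 0.0180). Tlr9, the receptor for unmethylated CpG DNA, had a log2 fold change of 0.41 (SE 0.18, edgeR adjusted p = 0.186). Tlr7, the single-stranded RNA receptor encoded next to Tlr8 on the X chromosome, stood at 19.0, 24.7, 23.9, 41.2 and 39.1 CPM after early ND and at 39.3, 26.8, 27.5, 33.6 and 28.1 CPM after late ND. Its late ND values all fell inside the early ND range, and its log2 fold change was 0.05 (SE 0.21, edgeR adjusted p = 0.917).

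**Figure D3:**
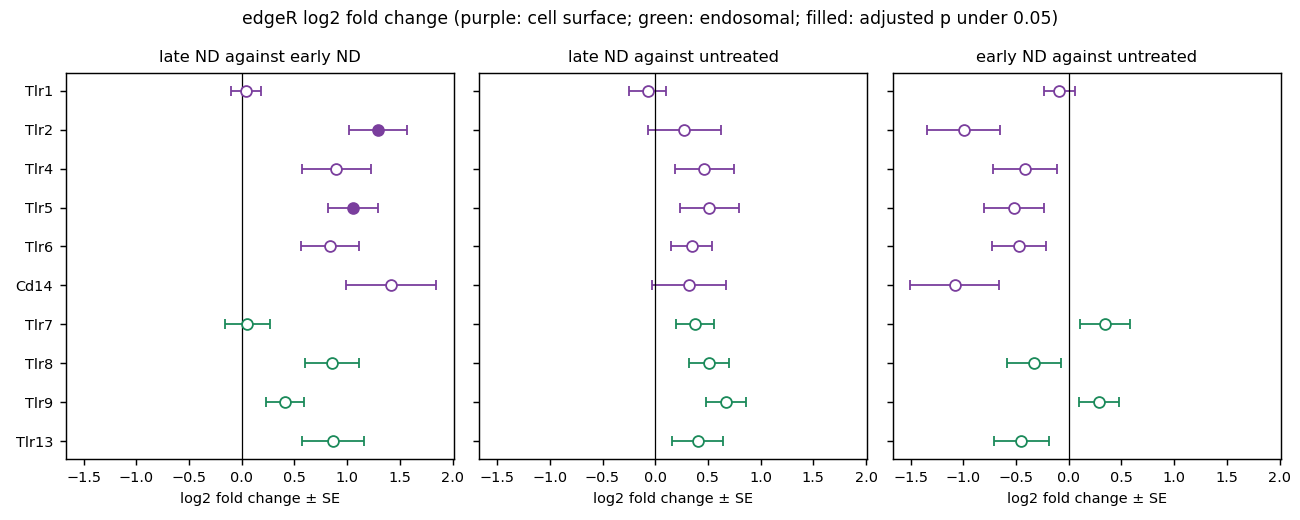
Log2 fold change ± SE from edgeR (x axis) of the 10 genes (y axis) in the 3 comparisons, purple for the cell surface class and green for the endosomal class. Filled circles passed the adjusted threshold. Tlr2 at 1.29 and Tlr5 at 1.06 in late ND against early ND are the only filled circles.

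Late ND was also set against untreated mice, the controls of the series. The 3 comparisons share libraries, since each group enters 2 of them, and their values are given side by side only. None of the 10 genes was called by edgeR over 13547 genes tested, of which 0.989% were called higher and 2.01% lower. At an unadjusted p under 0.05, 2 of 10 were higher, Tlr9 and Tlr8, against 8.69% of all genes. DESeq2's Wald test called 1 of the 10, Tlr9 (adjusted p = 0.0353), and 272 of all 13547 genes higher. For none of the 10 did the groups separate, against 3.57% of all genes that were higher without overlap. The median log2 fold change was 0.45 for the endosomal genes and 0.33 for the cell surface genes, against 0.0023 over all genes tested.

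Tlr9 had the largest log2 fold change against untreated mice, 0.67 (SE 0.19, edgeR adjusted p = 0.0832). It stood at 8.16, 7.70, 9.06, 12.4 and 7.84 CPM in untreated libraries, at 10.8, 13.6, 8.19, 12.7 and 9.83 CPM after early ND and at 19.5, 15.3, 13.3, 10.7 and 15.4 CPM after late ND. Late 4 was the only late ND library within the untreated range, whose upper end was set by untreated 4. Tlr8 was at 15.9, 23.6, 18.7, 30.4 and 22.3 CPM in untreated mice, with a log2 fold change of 0.51 (SE 0.19, edgeR adjusted p = 0.192), and 3 late ND libraries lay above every untreated library.

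Tlr7 had a log2 fold change of 0.38 (SE 0.18, edgeR adjusted p = 0.314) and Tlr13 of 0.40 (SE 0.24, edgeR adjusted p = 0.446) in late ND against untreated mice. For Tlr2 and Cd14 the values were 0.27 (SE 0.35, edgeR adjusted p = 0.768) and 0.32 (SE 0.35, edgeR adjusted p = 0.720), within the spread of both groups. Tlr4, Tlr5 and Tlr6 lay between 0.34 and 0.51 and did not pass. Tlr1 at -0.07 (SE 0.18) was the only one of the 10 below zero, and with library totals, a scaling that shifted the median of all genes by 0.91, it lay at 0.82.

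In early ND against untreated mice, edgeR called none of the 10 genes and none of the 12151 genes tested (0% higher and 0% lower), and DESeq2 called none either. At an unadjusted p under 0.05, 2 of 10 were lower, Tlr2 and Cd14, against 2.33% of all genes. They had log2 fold changes of -0.997 (SE 0.35) and -1.08 (SE 0.42), with an edgeR adjusted p of 0.938 for each. Cd14 stood at 24.1, 23.2, 7.93, 31.1 and 21.0 CPM in untreated libraries, and 2 of them, untreated 3 and untreated 5, lay within the early ND range of 4.12 to 21.4 CPM. The 6 cell surface genes were all below zero, with a median of -0.50 and a range from -1.08 to -0.09. The endosomal median was -0.02, with Tlr7 at 0.34 (SE 0.24) and Tlr9 at 0.29 (SE 0.19) above zero, and Tlr13 at -0.45 (SE 0.26) and Tlr8 at -0.33 (SE 0.26) below. None of these values passed.

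Across the 15 libraries the genes fell into sets by their covariation of log2 CPM, a description in which the libraries share 3 groups and scaling factors. Tlr2, Cd14, Tlr4, Tlr6, Tlr13 and Tlr8 varied together with Pearson r between 0.733 and 0.947 for each pair (n = 15), highest for Tlr6 and Tlr13 and next for Tlr4 and Tlr13 at 0.916. This set crossed the classes, since Tlr8 and Tlr13 are endosomal. Tlr5 followed it at 0.575 to 0.758. Tlr7 had an r of 0.591 with Tlr9, of 0.522 with Tlr8, and between -0.00038 and 0.324 with the other 5 genes of the set. Tlr9 lay between -0.046 and 0.262 with the 6 genes of the set. Tlr1 had no r above 0.196 with any other member. With each group's mean subtracted, the 6 genes kept an r of 0.568 to 0.906, and Tlr5 with them lay between 0.239 and 0.582. Tlr7 then had an r of 0.631 with Tlr8, 0.432 with Tlr9 and 0.397 with Tlr13.

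**Figure D4:**
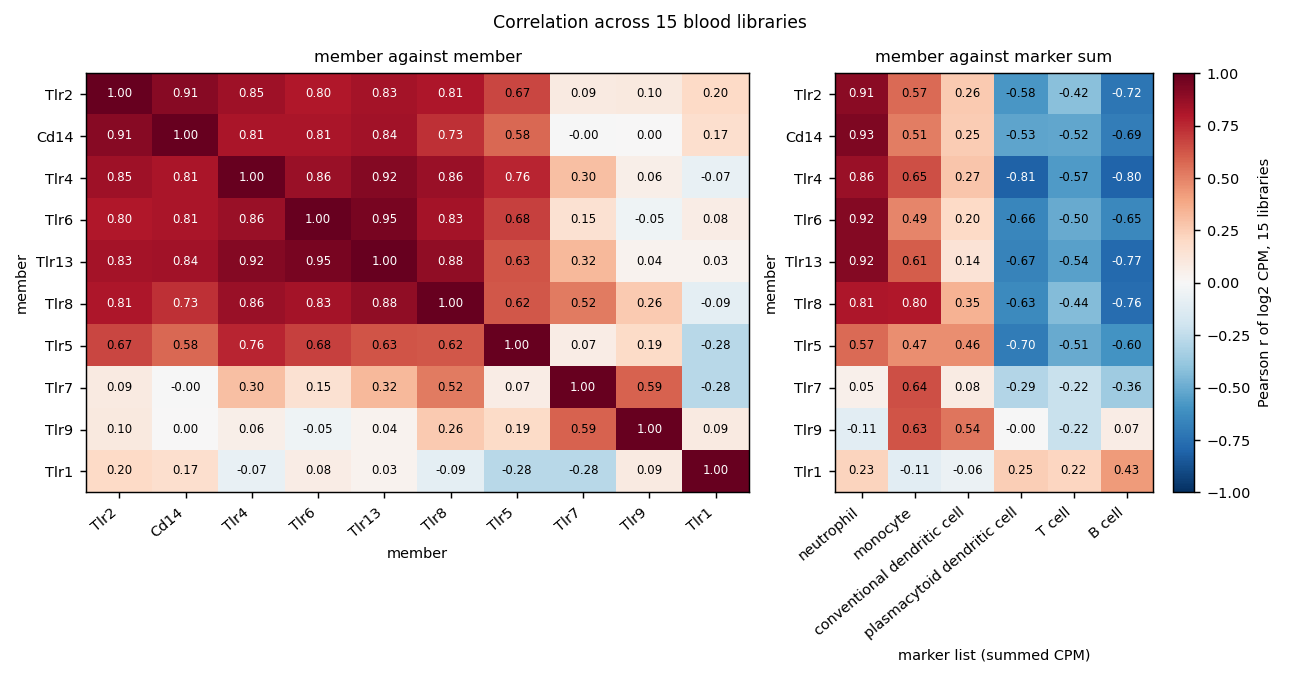
Pearson r of log2 CPM across the 15 libraries, between the 10 genes (left) and between each gene and the log2 summed CPM of marker lists for 6 blood cell types (right), with colors from -1 in blue to 1 in red. Tlr2, Cd14, Tlr4, Tlr6, Tlr13 and Tlr8 form a block and have an r of 0.81 to 0.93 with the neutrophil list, while Tlr9 and Tlr1 have an r of at most 0.26 with the block and Tlr7 reaches 0.52, with Tlr8.

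The same set moved with the summed markers of neutrophils. Summed CPM of the 9 neutrophil markers, all detected, was 2242 to 6980 after early ND, 5729 to 14106 after late ND and 4256 to 10983 in untreated mice, with early 2 the lowest and late 4 the highest library. S100a8 and S100a9 reached 3775 and 5412 CPM but Ly6g only 78.5, Ngp 69.9, Ltf 21.5 and Camp 10.1, so the sum follows its abundant members. S100a8, S100a9, Csf3r, Cxcr2 and Retnlg peaked in a late ND library, and Ly6g, Camp, Ngp and Ltf in an untreated library. Its r over 15 libraries was 0.932 with Cd14, 0.920 with Tlr6, 0.920 with Tlr13, 0.906 with Tlr2, 0.859 with Tlr4 and 0.812 with Tlr8. With group means subtracted it was 0.873 with Cd14, 0.898 with Tlr13 and 0.843 with Tlr2. For Tlr5 it was 0.566, and 0.253 with group means subtracted. For Tlr9 it was -0.106, and -0.490 with group means subtracted. The part of these markers in the receptor values was not tested.

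Monocyte markers (8 of 8 detected) summed to 604 to 1284 CPM after early ND, 1092 to 1653 after late ND and 581 to 1004 in untreated mice. Their r was 0.798 with Tlr8, 0.646 with Tlr4, 0.641 with Tlr7, 0.630 with Tlr9 and 0.605 with Tlr13, and between -0.105 and 0.569 with the other 5 genes. With group means subtracted it was 0.704 with Tlr8, 0.667 with Tlr7, 0.497 with Tlr4, 0.428 with Tlr13 and 0.155 with Tlr9. Tlr9 had its highest r among the other lists with conventional dendritic cells, 0.537 (-0.118 with group means subtracted), whose 5 markers summed to 21.3 to 29.7 CPM after late ND, 9.61 to 23.5 after early ND and 10.6 to 15.3 in untreated mice. Of these markers, Flt3 was higher without overlap, at 8.88 to 13.2 CPM after late ND against 2.40 to 7.19 after early ND. So was Cd209a, at 5.22 to 9.10 against 1.37 to 4.54 CPM. Xcr1, at 0.824 to 2.29 against 1.71 to 4.04 CPM, overlapped, as did Clec9a and Zbtb46. B cell markers summed to 470 to 1464 CPM after late ND, 848 to 1488 after early ND and 748 to 1105 in untreated mice, and their r was -0.797 with Tlr4, 0.072 with Tlr9 and 0.430 with Tlr1, the highest of the 10 genes. Plasmacytoid dendritic cell markers, of which 4 of 5 were detected in untreated mice and all in the other groups, summed to 11.5 to 28.7 CPM over the 15 libraries. T cell markers (7 of 7 detected) summed to 151 to 327 CPM. The part of these cell types in the receptor values was not tested.

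The genes most like each member across the 15 libraries were ranked by Pearson r among 13421 genes. Cd14 was most like Hdc, histidine decarboxylase (r = 0.977), followed by Pygl and Lcn2. Tlr2 was most like Csf2rb, the common beta chain of cytokine receptors (0.956), Zfp516 and Lmnb1. For Tlr4 the list was headed by Irak4, a kinase of the same pathway (0.960), and for Tlr6 by Slc2a6, a hexose transporter (0.978), Ccr1 and Fas. Tlr13 was closest to Fcgr3, an Fc receptor for IgG (0.972), Ostf1 and Cd244a, and Tlr8 to Tmem38b (0.963), Klra2 and Lgals3.

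Tlr7 was closest to Nod1, an intracellular sensor of peptidoglycan (0.893), Ms4a4c and Art2a, and Tlr9 to Tep1 (0.870), Cyp27a1 and Lrrk1. Tlr5 was closest to Tmigd3 (0.929), Mier3 and Fndc9. For Tlr1 the highest value was 0.853, with 6530413G14Rik, followed by Gm16253.

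Promoters were read for the 9 Toll-like receptors, since several of them varied together, as the 200 bases before the start of the canonical transcript in GRCm39. The myeloid factors PU.1 and C/EBP bind short motifs, of which the letters GAGGAA (PU.1 core) and TTGCNNAA (C/EBP) were searched on both strands, and no match of one overlapped a match of the other. GAGGAA was present in 4 of 9 windows, those of Tlr4, Tlr8, Tlr9 and Tlr13, against 18.8% of 21770 promoters of the same length. TTGCNNAA was present in 2 of 9, Tlr7 and Tlr8, against 7.23%. Tlr9 holds the PU.1 core but did not vary with Tlr4, Tlr8 and Tlr13, and Tlr2 and Tlr6 varied with them but hold neither string, so the matches did not follow the sets. Windows are shown for Tlr2, called higher and without a match, at chr3:83749075-83749274 (minus strand), for Tlr4, with a match 169 bases before the start, at chr4:66745583-66745782 (plus strand), and for Tlr13, the receptor of the highest level, with a match 13 bases before the start, at chrX:105186611-105186810 (plus strand). Capitals mark GAGGAA, which in Tlr4 is on the opposite strand and reads TTCCTC. A match is a string of letters, not a site of binding.
Tlr2 promoter: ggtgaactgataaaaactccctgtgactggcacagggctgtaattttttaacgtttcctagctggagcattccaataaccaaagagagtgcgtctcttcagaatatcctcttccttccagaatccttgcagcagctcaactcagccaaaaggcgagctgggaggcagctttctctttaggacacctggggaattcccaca
Tlr4 promoter: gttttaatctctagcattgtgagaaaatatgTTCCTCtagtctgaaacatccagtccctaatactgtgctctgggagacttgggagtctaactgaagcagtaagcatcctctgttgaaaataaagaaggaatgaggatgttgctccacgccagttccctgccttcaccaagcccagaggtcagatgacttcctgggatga
Tlr13 promoter: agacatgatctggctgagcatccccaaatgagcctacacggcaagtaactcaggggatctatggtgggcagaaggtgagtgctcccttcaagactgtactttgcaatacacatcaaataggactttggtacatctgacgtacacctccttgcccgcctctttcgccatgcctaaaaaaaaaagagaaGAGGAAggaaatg

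Toll-like receptor signalling needs partners, and 53 genes of the pathway were sorted by role. Of these, 48 were tested in late ND against early ND, of which edgeR called 1 higher and 1 lower, against 2.5% and 2.48% of all genes. At an unadjusted p under 0.05, 10 were higher and 5 lower, against 14.4% and 9.33% of all genes. The median log2 fold change was 0.09, so that the pathway genes as a list lay nearer to all genes than the 10 receptor genes did. In late ND against untreated mice, 1 of 48 was called higher and 1 lower, against 0.989% and 2.01% of all genes. Of these 48, 14 were higher at an unadjusted p under 0.05, against 8.69% of all genes, and 5 were lower, against 1122 of 13547 genes. In early ND against untreated mice none of 45 was called, as none of all genes was. There 4 were higher and 1 lower at an unadjusted p under 0.05, against 2.11% and 2.33% of all genes. Tlr11, Sarm1, Il6, Il12b and Cxcl2 were below the count filter in each comparison, and Tlr3, Lbp and Ccl3 also in early ND against untreated mice.

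Among co-receptors and chaperones, Cd36, a scavenger receptor that presents lipids to Tlr2 and is also made by red cell precursors and platelets, was lower. It stood at 49.8 ± 26.3 CPM in the early ND group, 12.4 ± 2.24 in the late ND group and 40.6 ± 16.8 in the untreated group (SD, n = 5 each). Log2 fold changes were -2.04 (SE 0.34, edgeR adjusted p = 0.0126) against early ND and -1.74 (SE 0.28, edgeR adjusted p = 0.0242) against untreated mice, without overlap in either case. The call against untreated mice was lost without untreated 3, and with any single late ND library left out. Without the 18S-poor libraries no gene was called lower against either group, so both calls of Cd36 were lost. Hemoglobin genes, which mark red cells, were lower in the same libraries, and their part in the value of Cd36 was not tested. In late ND against early ND, Tlr2 was thus called higher and its co-receptor Cd36 lower.

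Cnpy3, a chaperone that Toll-like receptors need to leave the endoplasmic reticulum, stood at 22.9 ± 2.06 CPM after early ND (SD, n = 5) and 30.6 ± 2.66 after late ND (SD, n = 5). Its log2 fold change was 0.38 (SE 0.10, edgeR adjusted p = 0.0471), just under the threshold. Higher calls over all genes fell from 333 to 4 without the 18S-poor libraries, and ranged from 36 to 1057 with each library left out. The result for Cnpy3 in those fits is not reported here. Unc93b1, which carries the endosomal receptors to endosomes, stood at 157 ± 5.34 CPM after early ND (SD, n = 5) and 210 ± 24.4 after late ND (SD, n = 5). Its groups did not overlap, but its log2 fold change of 0.39 (SE 0.12) did not pass (edgeR adjusted p = 0.0707). Hsp90b1, the chaperone that acts with Cnpy3, had a log2 fold change of 0.27 (SE 0.13, edgeR adjusted p = 0.222). Lbp, the lipopolysaccharide binding protein, was higher in late ND than in untreated mice by 1.21 on the log2 scale (SE 0.27, edgeR adjusted p = 0.0339), at levels of 2.34 to 4.66 CPM against 1.13 to 1.55, and against early ND its log2 fold change of 1.28 (SE 0.36) did not pass (edgeR adjusted p = 0.0594). The untreated levels of Lbp rest on 4 to 22 counts per library. Its call was lost without untreated 3, late 1, late 4, late 5 or the 18S-poor libraries, where no gene was called higher. Without late 2 only 1 of all genes was called higher and without late 3 only 9, and the result for Lbp there is not reported here.

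**Figure D5:**
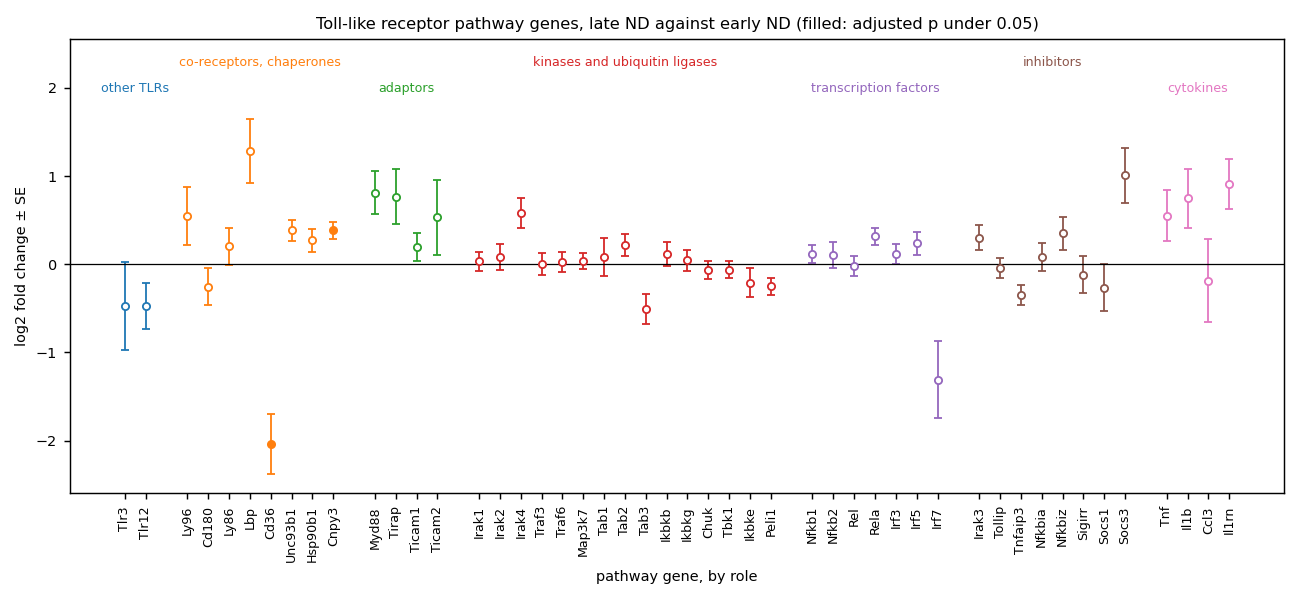
Log2 fold change ± SE from edgeR (y axis) of the 48 tested pathway genes (x axis) in late ND against early ND, colored by role. Filled circles passed the adjusted threshold, and these are Cd36 at -2.04 and Cnpy3 at 0.38.

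Of 4 adaptors tested, none passed in edgeR and 2 were higher at an unadjusted p under 0.05, against 14.4% of all genes. Myd88, used by all members except Cd14, stood at 79.2 ± 28.6 CPM after early ND (SD, n = 5) and 143 ± 36.9 after late ND (SD, n = 5), with a log2 fold change of 0.81 (SE 0.24, edgeR adjusted p = 0.0698). Tirap, which bridges Tlr2 and Tlr4 to Myd88, had a log2 fold change of 0.77 (SE 0.31, edgeR adjusted p = 0.155). None of the 15 kinases and ubiquitin ligases passed. Tab2 and Ikbkb had log2 fold changes of 0.22 (SE 0.12) and 0.11 (SE 0.14). None of the 7 transcription factors passed either, with Nfkb1 at 0.12 (SE 0.10) and Irf7, the interferon regulatory factor downstream of Tlr7 and Tlr9, at -1.31 (SE 0.44, edgeR adjusted p = 0.0939). Irf7 spread over 84.1 to 479 CPM after early ND and 54.3 to 169 CPM after late ND.

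Among 8 inhibitors none passed. Socs3, a feedback inhibitor of cytokine signalling, had a log2 fold change of 1.01 (SE 0.31, edgeR adjusted p = 0.0742), and Nfkbia, the inhibitor of NF-κB, of 0.08 (SE 0.16). Of the cytokine genes that the receptors induce, 4 of 7 had enough counts and none passed. Il1b had a log2 fold change of 0.75 (SE 0.33, edgeR adjusted p = 0.190) and Il1rn, the antagonist of its receptor, of 0.91 (SE 0.28, edgeR adjusted p = 0.0732). Of the other Toll-like receptors, Tlr3 had group means of 0.294 to 0.375 CPM per kb, below Tlr5, and Tlr12 of 1.51 in the untreated, 1.33 in the early ND and 1.00 in the late ND group. Their log2 fold changes in late ND against early ND, -0.47 (SE 0.50) and -0.47 (SE 0.26), did not pass. Other annotated genes overlap part of the exons of several of these genes, with 16.2% of exon bases for Myd88, 13.8% for Hsp90b1, 11.8% for Socs3, 8.19% for Tlr3, 7.28% for Nfkbia and 7.16% for Tirap on the opposite strand, so their levels are uncertain by reads from there.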

How the data were processed

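Blood RNA of 15 mice was sequenced as paired reads of 150 bases. The authors aligned reads to GRCm39 with STAR 2.7.9, sorted them with SAMtools 1.7 and counted them per gene with HTSeq 0.13.5. The deposited values are these raw counts, with no normalization. The labels also name mm10 among the builds. The annotation release and the strand setting are not given in the sources used here, so 3.35% of the exon bases of Tlr4, which lie opposite Gm69151, are of uncertain origin.

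Of 55416 gene identifiers, 54749 matched GENCODE M39, which gave symbols, positions and exon lengths. Each pair of groups was fitted with edgeR 4.0.16 (R 4.3.3) on the genes that passed filterByExpr, with TMM scaling, the quasi-likelihood test and Benjamini-Hochberg adjustment at 0.05. Per-library CPM came from TMM over all 15 libraries, and correlations used log2 CPM with a prior count of 2. The alternatives were DESeq2 1.42.0, other scalings and filters, 1 fit of all libraries, a replicate block and leaving out libraries. The fits were tested on simulated data. No 2 libraries of a group agreed within sampling noise.

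All 10 members were named, together with pathway genes past the threshold (at most 12) and the 2 of highest mean CPM in each role. For each member the most correlated genes were named, and 1 of them is not reported here. Members, lists and tests were chosen with earlier results of these data known. SDs describe the spread between the mice of a group, and SEs the precision of a log2 fold change. Each SE was derived as the size of the log2 fold change divided by the square root of edgeR's quasi-likelihood F.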

Additional observations from a re-analysis of the deposited data

Results flagged for a closer look

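Tlr9 in untreated 4 stood at 12.4 CPM, away from the other 4 untreated libraries, of which the nearest was at 9.06 CPM. The gap was 0.713 of the range of the group, above Dixon's critical value of 0.71 for 5 samples. Of the 30 groups of 5 examined for the 10 genes this was the only one, and chance alone marks about 1 in 20 such groups.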

How the results depend on the processing

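In late ND against early ND, the number of the 10 genes called moved from 2 to 10 with library totals, 7 without a filter on low counts, 5 with DESeq2 (Cd14, Tlr2, Tlr5, Tlr6 and Tlr8), 1 with at least 10 counts in every library, where Tlr5 was not tested, and 0 without the 18S-poor libraries. Leaving out each library gave 0 to 5. Library totals called 8923 of all 13315 genes higher. They shifted the median of all genes to 0.86, and the cell surface and endosomal medians to 1.77 and 1.48. In late ND against untreated mice the count moved from 0 to 10 with library totals, with class medians of 1.15 and 1.31, and to 1 with DESeq2. Of the 13547 genes tested there, library totals called 7484 higher and DESeq2 272. In early ND against untreated mice it was 0 in each of the 19 alternatives. The log2 fold change of Tlr1 in late ND against early ND turned to -0.13 without the 18S-poor libraries and ranged from -0.053 to 0.10 with each library left out, and that of Tlr7 from -0.082 to 0.19. Against untreated mice Tlr1 turned to 0.82 with library totals and ranged from -0.17 to 0.0061. The causes were not tested. Same-numbered libraries deviated together with r from -0.18 to 0.46 in late against early ND, from 0.029 to 0.58 in late ND against untreated (4 of 5 over 0.1) and from -0.24 to 0.080 in early ND against untreated, and 1, 3 and 0 of 5 libraries were most like their own number, so not every pair passed 0.1 and the numbers are not taken as pairs. With a replicate block 4 genes were called in late against early ND (Cd14, Tlr2, Tlr6 and Tlr8) and 0 in the other comparisons. Over all genes, late ND against early ND gave 769 higher and 670 lower of 13315 with DESeq2 and 886 and 396 of 28650 without a filter. With at least 10 counts in every library it gave 327 and 397 of 10193, and with a replicate block 368 and 305 of 13315. It gave 4 and 0 without the 18S-poor libraries, and 36 to 1057 and 106 to 553 with each library left out. Counts of 8 to 38 per early ND library limit the precision for Tlr5.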
